A study of Mus musculus with 8 samples.

Results

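The endothelial cells of the mouse left ventricle were described in 2 libraries of single-cell RNA sequencing, in which each transcript carries a unique molecular identifier (UMI) and each droplet a barcode. A barcode was taken as endothelial when it held at least 5 UMIs of Cdh5, Kdr, Egfl7 and Cldn5 together. It was left out when Dcn and Col3a1 reached 0.3% of its UMIs, C1qa, C1qb and C1qc reached 0.1%, S100a8 and S100a9 reached 1%, or Kcnj8 and Vtn exceeded 2 UMIs. The members were thus chosen by the measured UMIs of those genes, whose levels are given only as a description. The rule found 377 endothelial barcodes among 19637 that passed the filter of at least 200 genes and at most 30% mitochondrial UMIs, 278 in the 0 h library and 99 in the 6 h library.

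The study examined male C57BL/6 mice aged 10 to 12 weeks after sham surgery or ischemia-reperfusion (IR), in which the LAD coronary artery was tied for 30 min and then released. Left ventricles were digested with enzymes at 6 h, and cells of 3 hearts went into each suspension. The sample titles give 4 samples at 0 h and 4 at 6 h and name no sham group, whereas the methods place sham and IR hearts both at 6 h, so the groups are called here by the times in the titles. No engineered allele or drug is named for these samples. The deposited counts hold 1 matrix per time in which no barcode names its sample, so each time was 1 library without replicates. No p-value was computed, and every interval below is a 95% interval that covers counting error only.

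Endothelial cells line every vessel and the inner surface of the heart chambers. Capillary cells of the heart move fatty acids from the blood to the muscle, arterial cells face high shear, the endocardium lines the chambers, and lymphatic cells drain the tissue. After injury, endothelium can present selectins and immunoglobulin-type adhesion molecules that slow and hold leukocytes. The transcription factor NF-kB drives many of these adhesion genes, while interferon-stimulated genes respond to factors that bind the interferon-stimulated response element (ISRE).

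The promoters of 5 genes described below that hold a match are printed as examples: Icam1 and Selp of the leukocyte adhesion genes, and Isg15, Bst2 and H2-T23 of the interferon-stimulated and antigen presentation genes. Each is the 250 bases before the start listed by RefSeq on GRCm38.p6, the assembly that mm10 is built on, read along the gene's own strand. Capitals mark matches on either strand to the NF-kB letters GGNNTTTCC, where N is any base, or to the ISRE letters, GAAA followed by any 2 bases and GAAA. Overlapping matches run together.
Icam1 (chr9:21015690-21015939, plus strand): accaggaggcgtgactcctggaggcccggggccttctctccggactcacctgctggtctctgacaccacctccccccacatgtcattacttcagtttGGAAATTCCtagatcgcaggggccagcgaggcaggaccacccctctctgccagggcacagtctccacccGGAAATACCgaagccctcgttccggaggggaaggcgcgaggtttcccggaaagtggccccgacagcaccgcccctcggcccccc
Selp (chr1:164115014-164115263, plus strand): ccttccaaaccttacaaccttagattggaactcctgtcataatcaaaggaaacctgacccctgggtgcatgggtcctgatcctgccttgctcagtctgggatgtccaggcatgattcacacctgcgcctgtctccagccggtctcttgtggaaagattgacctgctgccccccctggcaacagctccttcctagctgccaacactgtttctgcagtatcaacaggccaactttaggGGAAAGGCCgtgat
Isg15 (chr4:156200819-156201068, minus strand): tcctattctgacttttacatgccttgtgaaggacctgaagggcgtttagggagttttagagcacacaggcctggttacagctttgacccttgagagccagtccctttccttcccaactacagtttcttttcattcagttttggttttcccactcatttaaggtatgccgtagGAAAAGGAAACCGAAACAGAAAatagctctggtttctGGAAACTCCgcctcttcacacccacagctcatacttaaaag
Bst2 (chr8:71537473-71537722, minus strand): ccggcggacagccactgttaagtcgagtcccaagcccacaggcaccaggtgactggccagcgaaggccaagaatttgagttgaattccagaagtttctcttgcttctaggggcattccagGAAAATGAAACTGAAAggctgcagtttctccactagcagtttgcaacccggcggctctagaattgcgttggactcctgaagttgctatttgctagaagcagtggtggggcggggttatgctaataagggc
H2-T23 (chr17:36032702-36032951, minus strand): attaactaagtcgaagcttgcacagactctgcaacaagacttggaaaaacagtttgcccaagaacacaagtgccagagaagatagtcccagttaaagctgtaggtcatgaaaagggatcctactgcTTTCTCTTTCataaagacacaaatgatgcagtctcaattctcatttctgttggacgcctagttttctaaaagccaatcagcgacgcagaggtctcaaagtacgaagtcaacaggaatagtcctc
Icam1 had 2 NF-kB matches, Selp 1 and Isg15 1, and ISRE matches numbered 3 in Isg15, 2 in Bst2 and 1 in H2-T23. Neither motif was in this window for Sele, Irf7, Ifitm3 or Psmb9, which are also described below. Of 27025 mouse promoters of this length, 4.84% held the NF-kB letters and 3.04% the ISRE letters. The ISRE letters stood in 12 of the 22 promoters found for interferon-stimulated genes (54.5%) and in 2 of 14 for antigen presentation. The NF-kB letters stood in 2 of 7 promoters of leukocyte adhesion genes, 6 of 13 of chemokines and cytokines, and none of 18 of endothelial identity genes. A match describes letters in this window, not a bound site.

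Endothelial barcodes made up 2.44% of the 0 h library (278 of 11377 barcodes, exact binomial interval 2.17% to 2.74%) and 1.20% of the 6 h library (99 of 8260, 0.975% to 1.46%). Their share was lower in the library in which barcodes with at least 2% of UMIs from S100a8 and S100a9, taken as neutrophils, numbered 2327 against 282, and a share of a pool cannot tell fewer endothelial cells from more of the others. The endothelial barcodes held 1522073 UMIs at 0 h and 823798 at 6 h, with medians of 4438 and 6915 UMIs and of 1803.5 and 2247 genes per barcode. The mitochondrial share had a median of 9.86% at 0 h and 11.9% at 6 h. Of the barcodes with the required endothelial UMIs, 110 of 388 at 0 h and 20 of 119 at 6 h were removed by the other limits. The 2 libraries shared 30 barcode sequences, of which 1 belonged to an endothelial barcode.

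The label held against markers that the rule did not use. Pecam1, an adhesion molecule of endothelial junctions, stood at 662 counts per 1000000 UMIs (CPM) at 0 h and 944 at 6 h, against 28.8 and 18.2 in all other barcodes. Emcn and Tie1, a sialomucin and a receptor kinase of endothelium, were at 361 and 213 CPM at 0 h and 658 and 215 at 6 h, and below 6 CPM in all other barcodes. Among the 6 genes given as markers with the rule, Fabp4, a fatty acid carrier, stood at 10691 and 16934 CPM, and Gpihbp1, which holds lipoprotein lipase on capillaries, at 704 and 978. Cdh5, the cadherin of endothelial junctions, was at 809 and 1001 CPM, Egfl7 at 1296 and 993, Cldn5 at 865 and 624, and Kdr, a VEGF receptor, at 614 and 471. At the edge of the rule, the 22 barcodes of the 0 h library with 5 or 6 of the required UMIs held Fabp4 at 4674 CPM, and the 23 with 3 or 4 held it at 4635. At 6 h the same windows, of 10 barcodes each, held 22138 and 8586 CPM, and barcodes with none held 119.

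RNA of other cells stood in these barcodes and moved with the libraries. Summed CPM of 11 neutrophil genes was 350 at 0 h and 1606 at 6 h in endothelial barcodes, and at least 1 such UMI was in 33.1% and 97.0% of them. Lcn2 made up 26.3 and 861 of these CPM. Of 10 measured, 6 were at least 2-fold higher at 6 h in endothelial barcodes and 9 in B cells, which held no UMI of the 4 endothelial genes and serve here as a reference for free RNA. The 11 pericyte and smooth muscle genes summed to 3708 CPM at 0 h and 807 at 6 h, and 47 of 278 against 7 of 99 endothelial barcodes held at least 5 UMIs of Acta2, Myh11, Tagln and Myl9. The other lists, at 0 h and 6 h, summed to 1676 and 2062 CPM for 10 pan-leukocyte genes, 930 and 1324 for 12 macrophage genes, 201 and 35.2 for B cell genes, and 118 and 7.28 for T and NK cell genes. Fibroblast genes summed to 1918 and 3648 CPM, of which Mgp, also an arterial gene, made up 1174 and 3196. Cardiomyocyte genes gave 567 and 244 CPM, erythrocyte genes 2105 and 458, platelet genes 18.4 and 86.2, Schwann cell genes 31.5 and 17.0, and mesothelial genes 75.6 and 49.8. Defining genes at 0 in both libraries were Cd8a for T cells, Kcna1 and Sox10 for Schwann cells, and Lrrn4, Upk3b, Upk1b and Msln for mesothelium. The part of this RNA in the results was not tested, except where a value without the barcodes concerned is given.

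The first comparison asked which endothelial genes differed between the libraries. Of 8788 genes with at least 20 UMIs in both libraries together, 641 (7.29%) were at least 2-fold higher in CPM at 6 h and 1062 (12.1%) at least 2-fold lower, and the median log2 ratio of all of them was -0.06. These shares are the background against which the counts of each list are read. By the same measure, 5.07% of genes in B cells were higher and 5.51% lower. The shares were 8.40% and 9.86% in fibroblasts, and 8.19% and 10.3% in pericytes. Chemokines and cytokines had the highest median of the 26 pathway lists, single leukocyte adhesion genes were among the highest ratios, and every measured interferon-stimulated and antigen presentation gene was lower at 6 h. Endothelial identity genes were near balance: of 35 measured, 2 were at least 2-fold higher, none lower, and the median log2 ratio was 0.08. The 2 were Ctla2a, a cathepsin inhibitor, at 726 and 2314 CPM, and Robo4, an endothelial guidance receptor, at 60.4 and 121.

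**Figure D1:**
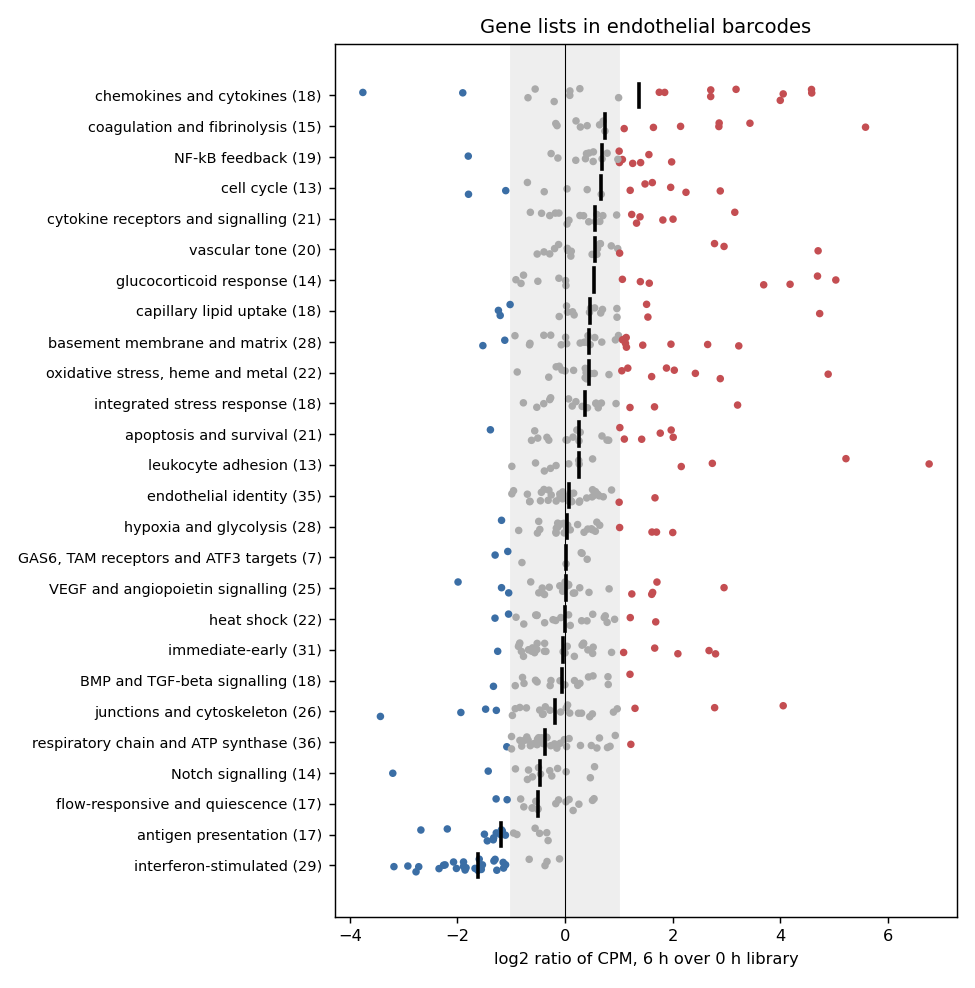
Log2 ratio of CPM at 6 h over 0 h (horizontal axis) for each measured gene (point) of 26 lists, with the number of genes in brackets and the list median as a black bar; blue and red points are past 2-fold and the grey band is within it. Interferon-stimulated and antigen presentation genes lie wholly below 0, and chemokines and cytokines have the highest median, 1.37.

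Leukocyte adhesion genes split into a few that were much higher at 6 h and the rest within 2-fold of their 0 h level. Of 13 measured, 4 were at least 2-fold higher and none lower, and the list median was 0.25. Sele, E-selectin, which endothelium makes after activation, had 2 UMIs at 0 h and 118 at 6 h, 1.31 and 143 CPM, a log2 ratio of 6.77 (interval 4.88 to 9.83). Selp, P-selectin, which slows rolling leukocytes, had 10 and 202 UMIs, 6.57 and 245 CPM, a ratio of 5.22 (4.31 to 6.30). Icam1, which binds leukocyte integrins and whose promoter above holds 2 NF-kB matches, stood at 35.5 and 237 CPM, a ratio of 2.74 (2.30 to 3.20). Vcam1, which holds monocytes and lymphocytes through other integrins, stood at 127 and 567 CPM, a ratio of 2.16 (1.92 to 2.41). All 4 intervals lay above a 2-fold difference. Icam2, an adhesion molecule of resting endothelium, was at 448 and 226 CPM, a ratio of -0.99 (-1.23 to -0.75).

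Each of the 4 adhesion genes was in a minority of barcodes, though most barcodes at 6 h held at least 1 of them. Sele was in 12 of 99 endothelial barcodes at 6 h (12.1%, interval 6.42% to 20.2%) and 2 of 278 at 0 h (0.719%, 0.0872% to 2.58%), and in 0.143% of 6 h B cells, whose median depth was 3498 UMIs (2701.5 at 0 h). Selp was in 20 of 99 (20.2%, 12.8% to 29.5%) against 7 of 278 (2.52%), and in 1.86% of 6 h B cells. With every cell thinned to 1000 UMIs, which leaves out 8 endothelial barcodes at 0 h and none at 6 h, Selp remained in 12.1% at 6 h (6.42% to 20.2%) and in 0.370% at 0 h. Sele remained in 5 of 99 at 6 h and 0 of 270 at 0 h. Icam1 remained in 8.08% at 6 h (3.55% to 15.3%) and 1.48% at 0 h (0.405% to 3.75%). Vcam1 remained in 13.1% at 6 h (7.18% to 21.4%) and 6.67% at 0 h (4.00% to 10.3%). For both Icam1 and Vcam1 the thinned intervals overlapped. Of the 20 barcodes with Selp at 6 h, 13 also held Vcam1, 12 Icam1, 11 Vwf and 8 Sele. None of Sele, Selp, Icam1 and Vcam1 was in 45 of 99 barcodes at 6 h, and 6 barcodes held all 4. Per barcode, the highest count was 41 UMIs for Sele, 59 for Selp, 52 for Icam1 and 119 for Vcam1, which was 34.7%, 29.2%, 26.7% and 25.5% of the library's endothelial UMIs of each gene.

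**Figure D2:**
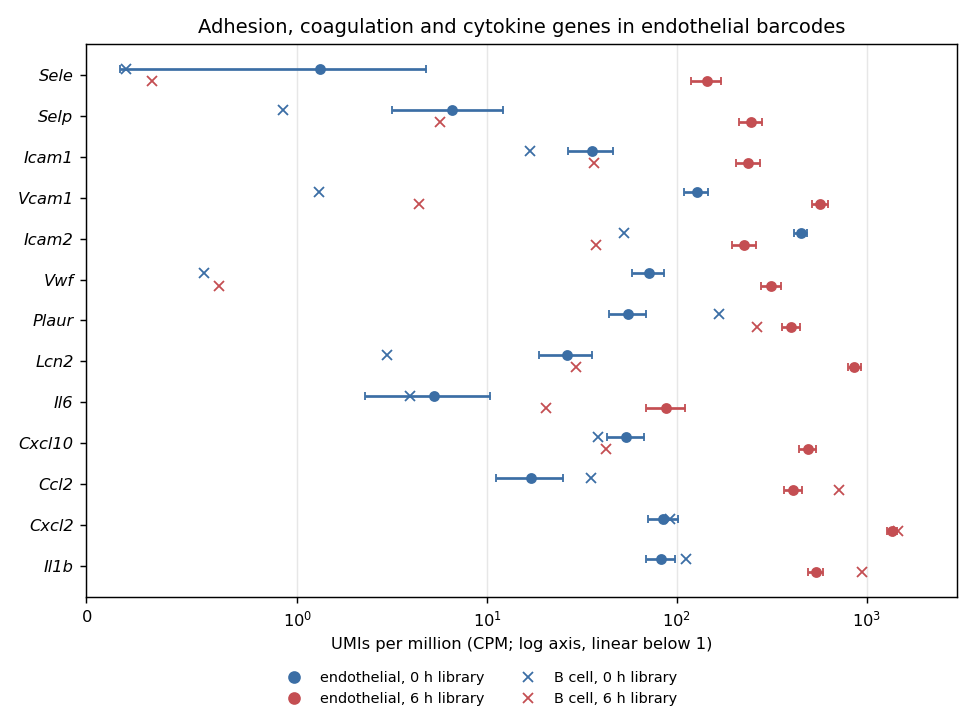
CPM on a log axis (linear below 1) for 13 adhesion, coagulation and cytokine genes in endothelial barcodes (circles with 95% Poisson intervals, counting error only) and in B cells (crosses), in the 0 h (blue) and 6 h (red) library. Sele, Selp, Vcam1, Vwf and Lcn2 stand well above B cells at 6 h, whereas Ccl2, Cxcl2 and Il1b lie at or below them.

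Chemokines and cytokines had 9 of 18 measured genes at least 2-fold higher and 2 lower, with a median of 1.37. B cells had 8 of the 14 measured there higher by the same measure, with a median of 2.12. Ccl2, which draws monocytes, stood at 17.1 and 409 CPM in endothelial barcodes and 35.1 and 716 in B cells. Cxcl2, which draws neutrophils, was at 84.8 and 1357 CPM against 91.4 and 1462, and Il1b at 82.1 and 537 against 112 and 948. These 3 were at or under the B cell level at 6 h, and the top endothelial barcode for each held 89 of 337 Ccl2 UMIs, 375 of 1118 Cxcl2 UMIs and 199 of 442 Il1b UMIs there, so no endothelial level is read from them. The part of free RNA in them was not tested. Il6, by contrast, was at 5.26 and 87.4 CPM in endothelial barcodes and 3.92 and 20.4 in B cells, with 18 of 99 barcodes carrying it at 6 h and 5 of 278 at 0 h. Its log2 ratio was 4.06, and 71 of its 72 UMIs at 6 h were in barcodes led by capillary genes. Of the 72, 27.8% were in 1 barcode and 76.4% in the top 5. With cells thinned to 1000 UMIs, Il6 was in 4 of 99 barcodes at 6 h and 1 of 270 at 0 h. Csf3, the granulocyte growth factor, had 0 UMIs at 0 h and 39 at 6 h, which is at least 24.0-fold higher when 3 UMIs stand for the 0, with 64.1% of them in 1 barcode.

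Cxcl10, a chemokine for T cells, was at 53.9 and 488 CPM, a ratio of 3.18 (2.83 to 3.54), but 216 of its 402 UMIs at 6 h stood in 1 barcode, and without the top barcode of each library its ratio was 2.25. Cxcl1 was at 104 and 350 CPM, with 17.5 and 180 in B cells. Ccl7 and Tnf, at 55.8 and 52.2 CPM at 6 h, lay at or under their B cell levels of 183 and 53.7, and Csf1 was at 57.8 and 115. Cxcl12, a constitutive arterial and capillary chemokine, was at 701 and 477 CPM, a ratio of -0.56 (-0.73 to -0.39). Tnfsf10, a death ligand, was at 90.7 and 24.3 CPM, and Ccl5 at 49.3 and 0, where 73.3% of its 0 h UMIs were in 1 barcode and the ratio without it, with 3 UMIs for the 0, was -1.85. Cx3cl1, Cxcl16, Ackr3, Kitl and Cxcl9 had ratios of -0.20, 0.09, 0.09, 0.28 and -0.69, that of Cxcl9 being -2.16 without its top barcodes.

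Genes of NF-kB feedback and cytokine reception were also more often higher than the background. Of 19 measured NF-kB feedback genes, 7 were at least 2-fold higher, 1 lower, and the median was 0.69, against 0.04 in B cells, 0.36 in fibroblasts and 0.91 in pericytes. Bcl3, an IkB-family coactivator, stood at 19.1 and 75.3 CPM, Tnfaip3, the deubiquitinase A20, at 24.3 and 71.6, and Traf1 at 29.6 and 8.50. Of 21 cytokine receptor and signalling genes, 6 were higher and none lower. In B cells 8 of 21 were higher and 1 lower, in fibroblasts 5 of 21 and 1, and in pericytes 8 of 20 and none. Il4ra, a chain of the IL-4 and IL-13 receptors, was at 22.3 and 199 CPM, a ratio of 3.16 (2.62 to 3.73), and was in 59 of 99 barcodes at 6 h against 30 of 278. Jak2, a kinase of cytokine receptors, was at 22.3 and 89.8 CPM.

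Coagulation and fibrinolysis genes had 7 of 15 measured members at least 2-fold higher, none lower and a median of 0.74. The same list was also higher in other cells. B cells had 4 of 10 higher (median 0.78), fibroblasts 5 of 15 with 1 lower (0.67), and pericytes 6 of 12 (1.12). Vwf, which tethers platelets, was at 71.0 and 314 CPM, a ratio of 2.15 (1.82 to 2.49). Plaur, the urokinase receptor, stood at 55.2 and 401 CPM, with 166 and 263 in B cells. Adamts4, a matrix protease, was at 14.5 and 157 CPM, a ratio of 3.44 (2.78 to 4.16), and at 1.25 in 6 h B cells. Nt5e, which makes adenosine, had 1 UMI at 0 h and 26 at 6 h. Adamts9 was at 82.8 and 259 CPM and Tfpi, an inhibitor of the tissue factor pathway, at 16.4 and 35.2, though its ratio was -0.11 among barcodes with at most 2500 genes. The anticoagulant Thbd and Procr, and Anxa2, S100a10, Plat, Entpd1, Adamts1 and Pros1, lay within 2-fold, with ratios from -0.17 to 0.74.

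Interferon-stimulated genes were lower in the 6 h library. All 29 measured genes were below their 0 h level, 25 of them at least 2-fold, against 12.1% of all genes, and the median log2 ratio was -1.62. Irf7, the factor that amplifies interferon production, stood at 442 and 58.3 CPM, a ratio of -2.92 (-3.38 to -2.50), and Ifi44 at 264 and 29.1, a ratio of -3.18 (-3.84 to -2.59). Isg15, a ubiquitin-like protein, was at 1209 and 177 CPM, and Bst2, which tethers viruses to membranes, at 2311 and 351. Ifitm3, a membrane protein that hinders viral entry, was the most abundant at 6670 and 3021 CPM. The 4 genes within 2-fold were Ifi204, Rsad2, Ifitm2 and Ifi27, with ratios of -0.67, -0.37, -0.33 and -0.10. Isg15, Bst2, Ifitm3 and these 4 were named after their values were seen.

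Per barcode, the whole interferon-stimulated list took a median of 1.96% of UMIs at 0 h (range 0.201% to 4.79%) and 0.475% at 6 h (0.0331% to 4.67%). The ranges overlapped, and 207 of 278 barcodes at 0 h against 14 of 99 at 6 h lay above 1%. Isg15 was in 79.5% of endothelial barcodes at 0 h and 27.3% at 6 h, and in 59.3% and 7.07% after thinning to 1000 UMIs, against 18.4% and 0.866% in B cells. At 6 h 1 barcode of 29771 UMIs, the deepest of the library and led by capillary genes, held 937 of the 5666 interferon-stimulated UMIs (16.5%) but 3.61% of all endothelial UMIs. Without it the list took 0.596% of endothelial UMIs at 6 h, against 0.688% with it and 1.77% at 0 h. The same barcode held 29 of 48 Irf7 UMIs, 12 of 24 Ifi44 UMIs, and the 216 Cxcl10 UMIs above. Without the top barcode of each library for the gene, the ratio was -4.16 for Irf7 and -4.14 for Ifi44.

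Antigen presentation followed the same direction: 17 of 17 measured genes were below their 0 h level, 11 of them at least 2-fold, with a median of -1.18. H2-T23, a nonclassical class I gene, was at 715 and 112 CPM, a ratio of -2.68, and Psmb9, a subunit of the immunoproteasome, at 210 and 46.1, a ratio of -2.19 (-2.71 to -1.70). The abundant classical genes H2-K1 and H2-D1 and their partner B2m differed less, with ratios of -0.96, -0.47 and -0.56. Class II genes H2-Aa and H2-Ab1, at -0.34 and -0.31, were the least different.

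The same lists were lower in other cells. Over the same genes, the interferon-stimulated median was -2.63 in fibroblasts, -1.66 in pericytes and -2.34 in B cells, and the antigen presentation median was -1.94, -1.35 and -1.04. At 0 h endothelial barcodes had more of some of these genes than the other cells did. Isg15 was at 1209 CPM, against 546 in fibroblasts, 574 in pericytes and 266 in B cells, and Ifi44 at 264, against 10.7, 41.2 and 11.4. Since 1 library stands for each time, a difference between libraries and a difference between times cannot be told apart.

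**Figure D3:**
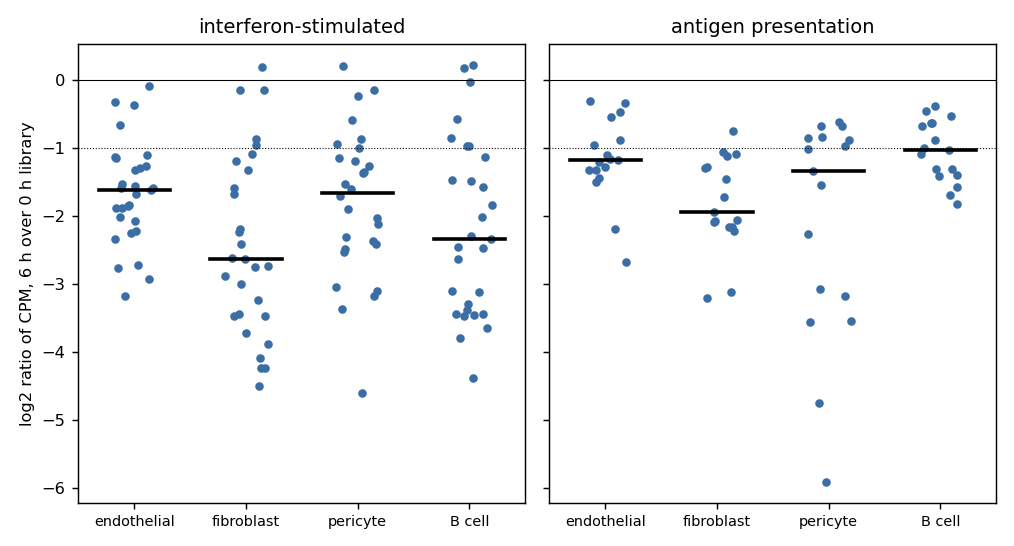
Log2 ratio of CPM at 6 h over 0 h (vertical axis) for the interferon-stimulated genes (left) and antigen presentation genes (right) with at least 20 UMIs in endothelial barcodes and in the class shown; black bars are medians and the dotted line is a 2-fold lower level. Medians lie between -1.62 and -2.63 on the left and between -1.04 and -1.94 on the right in the 4 classes.

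Flow-responsive and quiescence genes had few members past 2-fold. Of 17 measured, 2 were at least 2-fold lower, a share near the 12.1% of all genes, and none higher. Their median was -0.50, against -0.06 for all genes. But in barcodes led by capillary genes it was -0.16, against 0.07 for all genes there. In those barcodes 1 of 17 was lower, against 8.29% of all genes. Klf2, a transcription factor that laminar flow sustains, was at 2381 and 980 CPM, a ratio of -1.28 (-1.39 to -1.17), and was in 96.0% of barcodes at 0 h and 71.7% at 6 h. After thinning it was in 79.3% and 43.4%, against 73.7% and 48.2% in B cells, and its ratio was -1.33 in fibroblasts and -0.97 in B cells. Foxp1 was at 445 and 211 CPM. Klf4, which acts beside Klf2, was at 948 and 651 CPM, a ratio of -0.54 (-0.69 to -0.40), and Nos3, the endothelial nitric oxide synthase, at 168 and 154. The remaining members ran from -0.82 for Foxo3 to 0.54 for Piezo1, a channel that senses stretch.

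Immediate-early genes, which respond to stimulation and to tissue digestion alike, had a median of -0.04, with 5 of 31 measured at least 2-fold higher and 1 lower. Fos and Egr1 stood at 2146 and 1177 CPM and at 1405 and 784, with ratios of -0.87 and -0.84, and Jun at 1801 and 1253. The 5 were Ctgf, Myc, Cyr61 and Ier3, with ratios of 2.80, 2.68, 1.67 and 1.09, and Maff, at 39.4 and 169 CPM, and Nr4a2 was lower at -1.25. For Ctgf, 73.1% of its 6 h UMIs were in 1 barcode, its ratio was 1.22 without the top barcodes, and it turned to -0.62 among barcodes led by capillary genes. Cyr61 had 46.7% in 1 barcode and a ratio of 0.84 without the top ones.

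Capillary lipid genes had 3 of 18 measured members at least 2-fold higher and 3 lower, with a median of 0.46. Among barcodes with at most 10% mitochondrial UMIs, 141 at 0 h and 36 at 6 h, the balance was not kept. There 10 of 17 were higher and 1 lower, against 9.09% and 13.8% of all genes, with a median of 1.37. In barcodes led by capillary genes 3 of 16 were higher and 2 lower, against 10.3% and 8.29% of all genes there. The median there was 0.07, against 0.07 for all genes in those barcodes. Over the members measured in other cells, the list median was 0.52 in B cells, 0.52 in fibroblasts and 0.50 in pericytes. Angptl4, which inhibits lipoprotein lipase, was at 6.57 and 175 CPM, a ratio of 4.73 (3.81 to 5.82), and was in 36 of 99 barcodes against 10 of 278. The same gene had ratios of 4.70 in fibroblasts and 4.74 in pericytes. Lpl, the lipase itself, was at 270 and 785 CPM in endothelial barcodes, a ratio of 1.54 (1.36 to 1.72), but had ratios of -0.76 in fibroblasts and -0.85 in pericytes. Timp4, a protease inhibitor, was at 151 and 432. Lower were Tcf15, a factor of fatty acid transport in heart capillaries, at 335 and 142 CPM, Aqp7, a glycerol channel, at 140 and 60.7, and Slc27a3 at -1.02.

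Among genes of the glucocorticoid response, 7 of 14 measured were at least 2-fold higher and none lower. In B cells 3 of 10 were higher, in fibroblasts 6 of 14 and in pericytes 5 of 12, with none lower. Fkbp5 and Zbtb16, classical targets of the receptor, had 6 and 3 UMIs at 0 h and 59 and 42 at 6 h, with ratios of 4.18 (2.98 to 5.69) and 4.69 (3.05 to 7.03). Fkbp5 was in 39 of 99 endothelial barcodes at 6 h. Tsc22d3 and Dusp1, also targets, had ratios of -0.82 and -0.77, so the list did not move as 1. Oxidative stress and metal genes had 8 of 22 higher and none lower. In B cells 7 of 22 were higher and 1 lower, in fibroblasts 7 of 22 higher and in pericytes 8 of 22 higher. Mt2, a metallothionein, stood at 10.5 and 312 CPM, and 61 of 99 barcodes at 6 h held it against 10 of 278. Its level in 6 h B cells was 207 CPM. Slc7a11, the cystine carrier, was at 9.20 and 68.0 CPM.

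Of the vessel lists given next, all but vascular tone held genes past 2-fold in both directions. Vascular tone genes had 4 of 20 higher and none lower, among them Ptgs2, the inducible cyclooxygenase, at 5.91 and 154 CPM (129 in 6 h B cells), and Apln, an angiogenic peptide, at 6.57 and 51.0 (1.25 in B cells). VEGF and angiopoietin genes had 5 of 25 higher and 3 lower. Angpt2, a Tie2 ligand stored in endothelial granules, was at 17.1 and 55.8 CPM, and Vegfa and Vegfb were at 44.0 and 19.4 and at 28.9 and 7.28. Basement membrane and matrix genes had 9 of 28 higher and 2 lower, with Timp1 at 8.54 and 80.1 CPM (84.1 in 6 h B cells), Nid2 at 6.57 and 41.3, Fbln5 at 290 and 101 and Fbln2 at 327 and 151. Junction and cytoskeleton genes had 3 of 26 higher and 4 lower, led by Tubb6, a tubulin, at 6.57 and 109 CPM, Rnd1, which loosens stress fibres, at 32.8 and 226, and the arterial connexin Gja5 at 65.0 and 17.0. BMP and TGF-beta genes had 1 of 18 higher, Bmp4 at 1.21, and 1 lower, Tgfb2 at -1.33.

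Of the stress, survival and energy lists given next, all but the integrated stress response held genes past 2-fold in both directions. Heat shock genes had 2 of 22 higher and 2 lower: the near-identical pair Hspa1a and Hspa1b, whose reads may be split between them, at 567 and 1824 CPM and at 405 and 940, and Ahsa1 and Chordc1 at -1.05 and -1.30. Hypoxia and glycolysis genes had 4 of 28 higher and 1 lower, with Hif1a at 54.5 and 218 CPM and Pfkfb3, a driver of glycolysis, at 19.1 and 61.9. Genes of the integrated stress response had 3 of 18 higher and none lower, Psat1 and Asns at 3.21 and 1.66 among them. Apoptosis and survival genes had 6 of 21 higher and 1 lower, with Tnfrsf10b at 2.01, Bcl2a1b, which has close paralogs, at 1.97, and Pmaip1 at -1.39. Respiratory chain genes had 1 of 36 higher and 1 lower, mt-Nd2 at 1.22 and Uqcr11 at -1.08. Cell cycle genes had 6 of 13 higher and 2 lower, but Mki67 and Cenpf, at 2.25 and 2.89, had 77.8% and 91.7% of their 6 h UMIs in 1 barcode, and Ccnd2, which is not particular to cycling cells, was at -1.79.

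The GAS6 and ATF3 genes that the study follows in macrophages were detected in endothelial barcodes. Gas6, the ligand of the TAM receptors, was at 260 and 149 CPM, a ratio of -0.80 (-1.11 to -0.51), with UMIs in 169 of 278 and 43 of 99 barcodes. Pros1, the other ligand, was at 65.7 and 87.4 CPM (0.41, -0.05 to 0.86). Axl was at 55.8 and 26.7 CPM, a ratio of -1.06 (-1.81 to -0.37) that turned to 0.53 among barcodes with at most 2500 genes, and Mertk at 35.5 and 43.7 (0.30, -0.35 to 0.94), while Tyro3 was under the minimum of 20 UMIs. Atf3 was at 349 and 435 CPM (0.32, 0.12 to 0.51), in 126 of 278 and 41 of 99 barcodes. For Atf3, 17.3% of the 6 h UMIs were in 1 barcode, and without the top barcode of each library the ratio was 0.10. Its ratio was -1.07 in fibroblasts and 0.74 in pericytes. Ifih1, an RNA sensor and itself interferon-stimulated, was at 92.6 and 37.6 CPM, Apaf1 at 20.4 and 20.6, and Ifnb1 was under the minimum. Of the 7 measured, none was at least 2-fold higher and 2 were lower.

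The second comparison asked in which endothelial barcodes these genes stood. Each barcode was set to the gene set with the most UMIs, at least 3, out of 6 capillary genes (Gpihbp1, Cd300lg, Rgcc, Btnl9, Car4, Aqp7), 7 arterial genes (Gja5, Sema3g, Stmn2, Hey1, Bmx, Dkk2, Alpl), 4 endocardial genes (Npr3, Cytl1, Hapln1, Tmem108) and 4 lymphatic genes (Prox1, Mmrn1, Ccl21a, Reln). The sets were drawn up after the data had been seen and are ranges of a score, not cell types, and their own genes are no result. Capillary genes led 145 of 278 barcodes at 0 h (52.2%, 46.1% to 58.2%) and 60 of 99 at 6 h (60.6%, 50.3% to 70.3%). Arterial genes led 75 of 278 (27.0%, 21.9% to 32.6%) and 9 of 99 (9.09%, 4.24% to 16.6%), and these intervals did not overlap. Endocardial genes led 20 (7.19%) and 15 (15.2%), lymphatic genes 14 (5.04%) and 6 (6.06%), and no set led 24 and 9. A barcode was near a boundary when another set had at least 50% of the UMIs of its leading set, which held for 11 capillary-led, 12 arterial-led, 3 endocardial-led and 1 lymphatic-led barcodes at 0 h and for 5, 4, 1 and 1 at 6 h. Of the 75 arterial-led barcodes at 0 h, 32 held at least 5 smooth muscle UMIs, as did 3 of the 9 at 6 h. The part of such barcodes in the arterial shares was not tested.

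**Figure D4:**
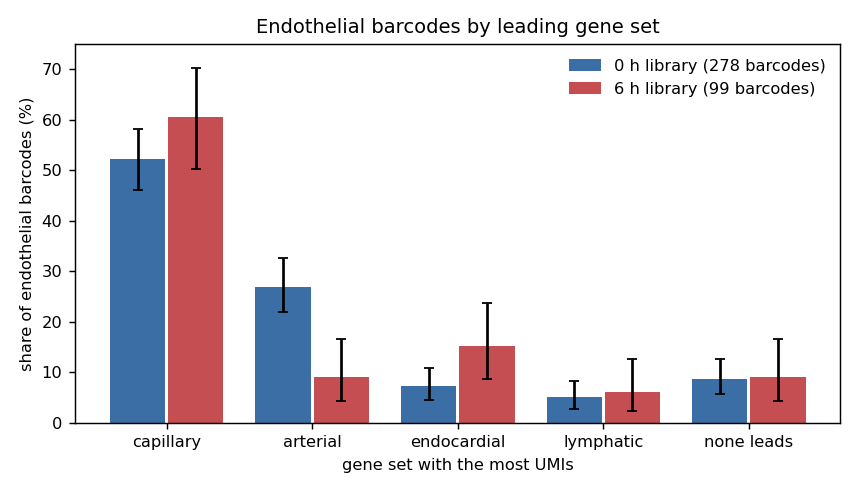
Share of endothelial barcodes (vertical axis, percent) whose most abundant gene set was the one named, in the 0 h (blue) and 6 h (red) library, with exact 95% binomial intervals. The arterial share was 27.0% at 0 h and 9.09% at 6 h, and the other shares have overlapping intervals.

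Longer marker lists were also summed. Of 12 measured arterial genes, 9 were at least 2-fold lower at 6 h and 1, Mgp, was higher, with a median of -1.50. After thinning to 1000 UMIs, at least 2 UMIs of the arterial list, Mgp included, were in 45.2% of barcodes at 0 h and 37.4% at 6 h (27.9% to 47.7%). Capillary markers were in 76.7% and 89.9%, venous in 13.0% and 26.3%, endocardial in 10.4% and 22.2%, and lymphatic in 6.30% and 12.1%. In B cells these shares ran from 0% to 1.44%. Without thinning the endothelial shares were 88.5% and 94.9% for capillary, 77.3% and 69.7% for arterial, 49.3% and 57.6% for venous, 30.2% and 42.4% for endocardial, and 21.9% and 32.3% for lymphatic markers. Notch genes, which mark arterial fate, had 2 of 14 lower, a share near the 12.1% of all genes, and none higher. The 2 were Hey2 and Hey1, at -3.20 and -1.43, and Hey1 is also in the arterial set. In arterial-led barcodes none of 10 measured Notch genes was past 2-fold, with a median of 0.22. Of all genes there, 6.64% were higher and 18.2% lower. In capillary-led barcodes 1 of 12 was higher and none lower, against 10.3% and 8.29% of all genes there. The venous list, which holds Vwf, Vcam1, Selp and Plvap, had 5 of 8 higher and none lower, and Ackr1, a marker of venules, had no UMI in either library.

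Selp, Vwf and Vcam1 stood mainly outside capillary-led barcodes. All are on the venous list, but no venous set was scored, so venous cells cannot be told apart among these sets. Of 259 Vwf UMIs at 6 h, 217 (83.8%) were in the 15 endocardial-led barcodes, 14 of which held the gene, at 1576 CPM against 419 in the 20 such barcodes at 0 h. Vcam1 had 344 of 467 UMIs there (73.7%), at 2498 CPM against 517, and Selp had 80 of 202 (39.6%), at 581 against 48.9. Summed over endocardial-led barcodes, these 3 genes were higher at 6 h, with Poisson intervals that did not overlap. Those intervals do not cover the spread between barcodes. At 6 h 1 endocardial-led barcode held 33 of the 80 Selp UMIs and another 119 of the 344 Vcam1 UMIs. In capillary-led barcodes Selp and Sele had 0 UMIs among 145 at 0 h, which allows a share of barcodes with a UMI of up to 2.07% and sets no limit on the cells that express them. At 6 h they had 66 and 80 UMIs in 5 of 60 barcodes each, 59 and 41 of them in 1 barcode. Icam1 was in more capillary-led barcodes, 21 of 60 at 6 h, at 18.3 CPM at 0 h and 253 at 6 h (3.79, 2.97 to 4.73). Its UMIs were also concentrated, with 52 of the 138 at 6 h in 1 of these barcodes and 39 in another.

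Lcn2, lipocalin 2, a carrier of bacterial siderophores that injured tissue releases, stood mainly in lymphatic-led barcodes at 6 h. It had 40 UMIs at 0 h and 709 at 6 h in all endothelial barcodes, 26.3 and 861 CPM, a ratio of 5.03 (4.57 to 5.53). The 6 lymphatic-led barcodes of the 6 h library held 505 of the 709 UMIs (71.2%), with 0, 59, 78, 90, 123 and 155 UMIs. The 14 lymphatic-led barcodes of the 0 h library held 25, between 0 and 8 each, so the 5 positive 6 h barcodes lay above all of them. Lcn2 in lymphatic-led barcodes was thus at 16751 CPM at 6 h (15322 to 18278) and 313 at 0 h (203 to 462), and in 6 h B cells at 29.5. The same 5 barcodes held Selp, with 51 UMIs in all (1692 CPM), and the 14 lymphatic-led barcodes at 0 h held none. In the order given for Lcn2, the 6 lymphatic-led barcodes at 6 h held 0, 12, 4, 21, 10 and 15 UMIs of Fabp4. None of the 14 at 0 h held Fabp4. Whether the lymphatic-led sets of the 2 libraries hold the same kind of cell was not tested. AA467197, a small transcript among the 10 highest ratios, had 89 of its 248 UMIs at 6 h in 3 lymphatic-led barcodes but 136 in 20 of the 60 capillary-led ones. Lcn2 had a ratio of 5.11 in fibroblasts and 3.52 in pericytes, and stood at 2903 CPM in 6 h neutrophils.

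**Figure D5:**
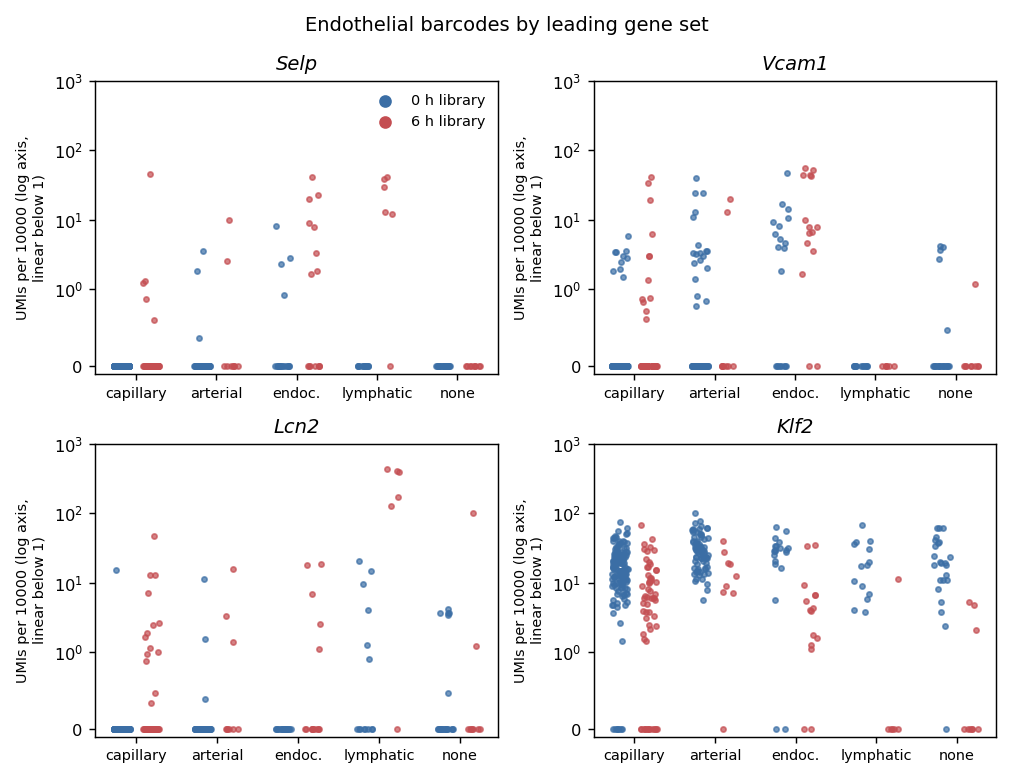
UMIs per 10000 in each endothelial barcode (point) for Selp, Vcam1, Lcn2 and Klf2, on a log axis that is linear below 1, by leading gene set and library (0 h blue, 6 h red). Lcn2 was in 5 of the 6 lymphatic-led barcodes at 6 h, with 59 to 155 UMIs, Vcam1 in 13 of the 15 endocardial-led ones, and Klf2 summed over barcodes is lower at 6 h in each of the 4 sets.

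Klf2 and the median of the interferon-stimulated list were lower at 6 h within each of the 4 sets. Klf2 stood at 1823 and 1104 CPM in capillary-led, 2969 and 1639 in arterial-led, 3219 and 501 in endocardial-led and 2103 and 332 in lymphatic-led barcodes. In the last, 14 of 14 barcodes held it at 0 h and 1 of 6 at 6 h. These lymphatic-led sets also differed in Fabp4, as given above. The median ratio of the interferon-stimulated list was -1.52 in capillary-led barcodes (29 genes), -2.71 in arterial-led (29), -3.79 in endocardial-led (16) and -1.79 in lymphatic-led (10). For antigen presentation it was -1.16, -2.33, -1.14 and -1.90. Isg15 went from 1160 to 223 CPM in capillary-led barcodes, and had 124 UMIs in 14 lymphatic-led barcodes at 0 h and none in 6 at 6 h.

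Mgp, matrix Gla protein, an inhibitor of BMP signals and of calcification, stood at 1174 and 3196 CPM over all endothelial barcodes, a ratio of 1.44 (1.36 to 1.53). It was at 2245 CPM at 0 h and 16155 at 6 h in arterial-led and at 3729 and 10131 in endocardial-led barcodes. The arterial-led set at 6 h was 9 barcodes. Of these, 1 barcode of 3046 UMIs in all held 312 of the 2633 Mgp UMIs of the 6 h library's endothelial barcodes. In capillary-led barcodes it was at 130 and 115 CPM, and in fibroblasts at about the same level in both libraries, with a ratio of 0.03. Lyve1, a hyaluronan receptor best known from lymphatics, had 147 of its 177 UMIs at 6 h in endocardial-led barcodes, 11 of 15 of which held it, and 26 in lymphatic-led ones. At 0 h it had 30 and 66. Mgp, Lyve1 and Lcn2 in subsets were picked after their values were seen.

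Among the 10 highest ratios of genes that stood at least 2-fold above all other barcodes, several were spread over capillary-led barcodes. Adamts4 had 108 of its 129 UMIs at 6 h in 22 of 60 such barcodes, Noct, a circadian deadenylase, 104 of 136 in 25, Adh1, an alcohol dehydrogenase, 52 of 65 in 16, and Apln 35 of 42 in 9. Rnd1 had 124 of 186 in 23. Adh1 was at 0 CPM in B cells of both libraries. The remaining ones were Sele, AA467197, Selp, Cxcl10 and Npr3, an endocardial gene with 45.4% of its 6 h UMIs in 1 barcode.

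The 10 lowest ratios included smooth muscle, endocardial and arterial genes. Acta2, smooth muscle actin, was at 971 and 86.2 CPM, and 99.1% of its 1478 UMIs at 0 h were in the 47 barcodes with at least 5 smooth muscle UMIs. Without those barcodes its ratio was 0.15, against -3.49 with them. Acta2 is 1 of the 4 genes by which those barcodes were picked, so both values follow in large part from that choice. Casq2 and Mrvi1 had 98.8% and 100% of their 0 h UMIs in the same barcodes. Wnt9b and Hapln1, genes of endocardium and valves, had 63 and 72 UMIs at 0 h in 7 and 9 barcodes and 2 and 0 at 6 h, and Dkk2, an arterial gene, 52 in 13 barcodes and 2. Hbb-bt, a hemoglobin chain, had 95.1% of its 0 h UMIs in 1 barcode. Tgtp1, an interferon-inducible GTPase with a near-identical copy, had 69 UMIs in 55 barcodes at 0 h and 3 at 6 h, Olfml2a 49 and 2, and Wfdc1 62 and 3.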

How the data were processed

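Single-cell RNA was measured in left ventricular suspensions, deposited as 1 library per time. Per the labels and methods, the authors aligned reads to mm10 with Cell Ranger (3.1.0 in the file headers, another version in the reporting summary) and deposited whole-number UMI counts per gene and barcode, not normalized. Barcodes were filtered at 200 genes and 30% mitochondrial UMIs, without the study's limit of 2500 genes. Doublets were not called. UMIs were summed over the endothelial barcodes of a library and divided by their total (CPM). Genes with at least 20 UMIs in both libraries together were measured, and 3 UMIs stood for a count of 0. Ratios have exact conditional 95% intervals, shares Clopper-Pearson ones and levels Poisson ones. Reference classes were B cells (at least 5 UMIs of Cd79a, Cd79b and Ms4a1), fibroblasts (Dcn and Col3a1 at least 1%) and pericytes (Kcnj8 and Vtn at least 5 UMIs). The members and lists were chosen with earlier results of these data known. Genes were named by rule: the markers, up to 2 highest and 2 lowest past 2-fold per list, the 10 highest and 10 lowest with at least 50 UMIs, the GAS6 and ATF3 genes, and 5 lists in whole. Other named genes were chosen after their values were seen. The ratio and its interval were tested on simulated data. Promoters are from RefSeq. Python 3.11.15, numpy 2.4.6, scipy 1.17.1, pandas 2.3.3 and matplotlib 3.10.9 were used. Alternatives were other limits on genes, mitochondrial UMIs and endothelial UMIs, scaling, thinning, fold and UMI minimum, and leaving out barcodes with RNA of other cells. 1 gene is not reported here.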

Additional observations from a re-analysis of the deposited data

How the results depend on the processing

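Each library was 1 pool, so no alternative measures animals or repeat preparations, counts of 0 to 3 UMIs carry wide intervals, and small sets rest on 6 to 20 barcodes. No paired analysis was possible because no barcode names its sample. Of 1172 values of the 99 named genes past 2-fold, 1167 kept their sign and 1106 stayed past 2-fold, 138 more fell under 20 UMIs, and 71 genes stayed past 2-fold throughout; the cause was not tested for those that did not. Sign was lost by Tfpi (-0.11) and Axl (0.53) at 2500 genes, Axl (0.16) in the mean of per-cell CPM, Acta2 (0.15) without smooth muscle barcodes and Ctgf (-0.62) in capillary-led barcodes. Barcode shares at 0 h were 2.15% at 2500 genes, 1.31% at 10% mitochondrial UMIs, 1.79% at 10 endothelial UMIs and 2.03% without smooth muscle barcodes, and at 6 h 0.502% at 10% mitochondrial UMIs and 0.956% at 10 endothelial UMIs. Genes higher and lower numbered 269 and 406 in thinned cells, 1507 and 2033 at 1.5-fold, 1104 and 1823 at 5 UMIs, and 357 and 536 at 50 UMIs, as the limits on fold, UMIs or depth allow. Capillary-led barcodes had 541 lower, and 10.3% higher and 8.29% lower against 7.29% and 12.1%. The interferon-stimulated median was -2.16 at 2500 genes and -2.18 without each gene's top barcode, antigen presentation -1.79, -1.55 and, without leukocyte UMIs, -1.37, and capillary lipid uptake 1.37 at 10% mitochondrial UMIs. The median of all genes ran from -0.14 to 0.07. Alternatives on smooth muscle, capillary-led and top barcodes were chosen after seeing the data.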
